A study of Mus musculus with 10 samples.

Results

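The 7 genes Pcp4, Sln, Pdlim3, Fhod3, Smtn, Cald1 and Actn1 encode regulators of calcium signalling and of actin filaments, and their transcripts were followed across 5 cell populations of mouse paw pads. Every probe set annotated to 1 of these symbols alone was taken, which gave 12 of the 22690 probe sets and 7 of the 12393 genes on the array. For each gene the brightest probe set on average stands for the gene, and the other probe sets are described further on. The genes were selected on their measured signal in myoepithelial cells, which was known to be high, so their values in those cells against the others are a description without a test. Comparisons among the 4 other populations are not the contrast that chose them and were tested.

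Myoepithelial cells are contractile epithelial cells that wrap the secretory coil of sweat, salivary and mammary glands and squeeze its content outwards. As in smooth muscle, a rise of calcium in the cytosol loads calmodulin, which activates myosin light chain kinase, and calcium pumps then return the ion to its store. Actin filaments are anchored in dense bodies, the counterpart of the Z-disc of striated muscle, and are held in place by cross-linking and capping proteins.

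The populations were sorted by flow cytometry from the paw pads of female CD1 mice, all wild type, and were gland myoepithelial, gland luminal, duct basal, duct suprabasal and palmoplantar epidermal cells, the last being the thick skin of the sole. There were 2 arrays per population, which the labels call biological replicates. They give neither the sorting gates nor the age and number of animals behind an array. The signals are MAS5 values on a linear scale, which can be compared between arrays for 1 probe set but not between probe sets. Precision is limited by there being 2 arrays per population.

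The labels were set against marker genes. Acta2, the smooth muscle actin of myoepithelium, had 36397 and 58196 on the myoepithelial arrays and at most 2594 on the others, while Oxtr, the oxytocin receptor gene of mammary myoepithelium, reached only 15.3 on any array. Summed signals of other cell types also differed. Of 16 skeletal muscle markers 15 were on the array, with sums of 846 and 969 on the myoepithelial arrays, against 365 to 723 elsewhere. On both myoepithelial arrays 10 of these 15 lay at or below the 40th percentile of the array, among them the muscle creatine kinase gene Ckm and the fast myosin genes Myh1, Myh2 and Myh4. The myoglobin gene Mb stood apart, with 392 and 471 on the myoepithelial arrays, against at most 81.5 elsewhere. The 9 measured of 10 pericyte and vascular smooth muscle markers summed to 5305 and 3158 on the myoepithelial arrays, led by Mcam, against 644 to 3271 elsewhere. On both myoepithelial arrays only 3 of these 9 lay at or below the 40th percentile, among them Abcc9 (1.9 and 7.2) and Kcnj8 (44 and 1.8). The 9 immune markers summed to 4976 and 7373 in myoepithelial cells, led by Lyz2, against 209 to 1669 elsewhere. The 3 measured of 6 Schwann cell markers summed to 5626 and 6868, against 176 to 6507 elsewhere. On duct suprabasal arrays 1 and 2, the sums were 16485 and 88458 for 8 fibroblast markers and 5972 and 29386 for 9 endothelial markers. Elsewhere the fibroblast sums were 13408 and 16808 in myoepithelial, 24409 and 20681 in duct basal, 2215 and 6327 in luminal and 1173 and 1467 in epidermal cells, and the endothelial sums 65.7 to 1203. The luminal keratin gene Krt18 had 3744 on myoepithelial array 1 and 444 on array 2, and 9821 and 4751 on the duct suprabasal arrays. The part of these transcripts in the results below was not tested.

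Among the calcium regulators, Pcp4 and Sln were bright in myoepithelial cells and dim everywhere else. Pcp4 encodes a small peptide with an IQ motif that binds calmodulin and alters how it takes up and releases calcium. Its signal was 13141 and 18757 in myoepithelial cells, against 116 and 121 in luminal, 66.8 and 19.2 in duct basal, 119 and 37.2 in duct suprabasal and 3 and 2.2 in epidermal cells. The lower myoepithelial array was 109-fold above the highest other array. Sln encodes sarcolipin, a short membrane protein that inhibits the calcium pump of the sarcoplasmic reticulum and is known mainly from striated muscle. Its signal was 2852 and 3121 in myoepithelial cells, against 20.3 and 15.6 in luminal, 33.7 and 3.2 in duct basal, 8.4 and 13.6 in duct suprabasal and 11.4 and 28.7 in epidermal cells. None of these 8 other arrays exceeded its own 40th percentile for Sln, so only a bound can be given. With each of the 8 set to its 40th percentile, the lower myoepithelial array was at least 47.1-fold higher than any of them.

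**Figure D1:**
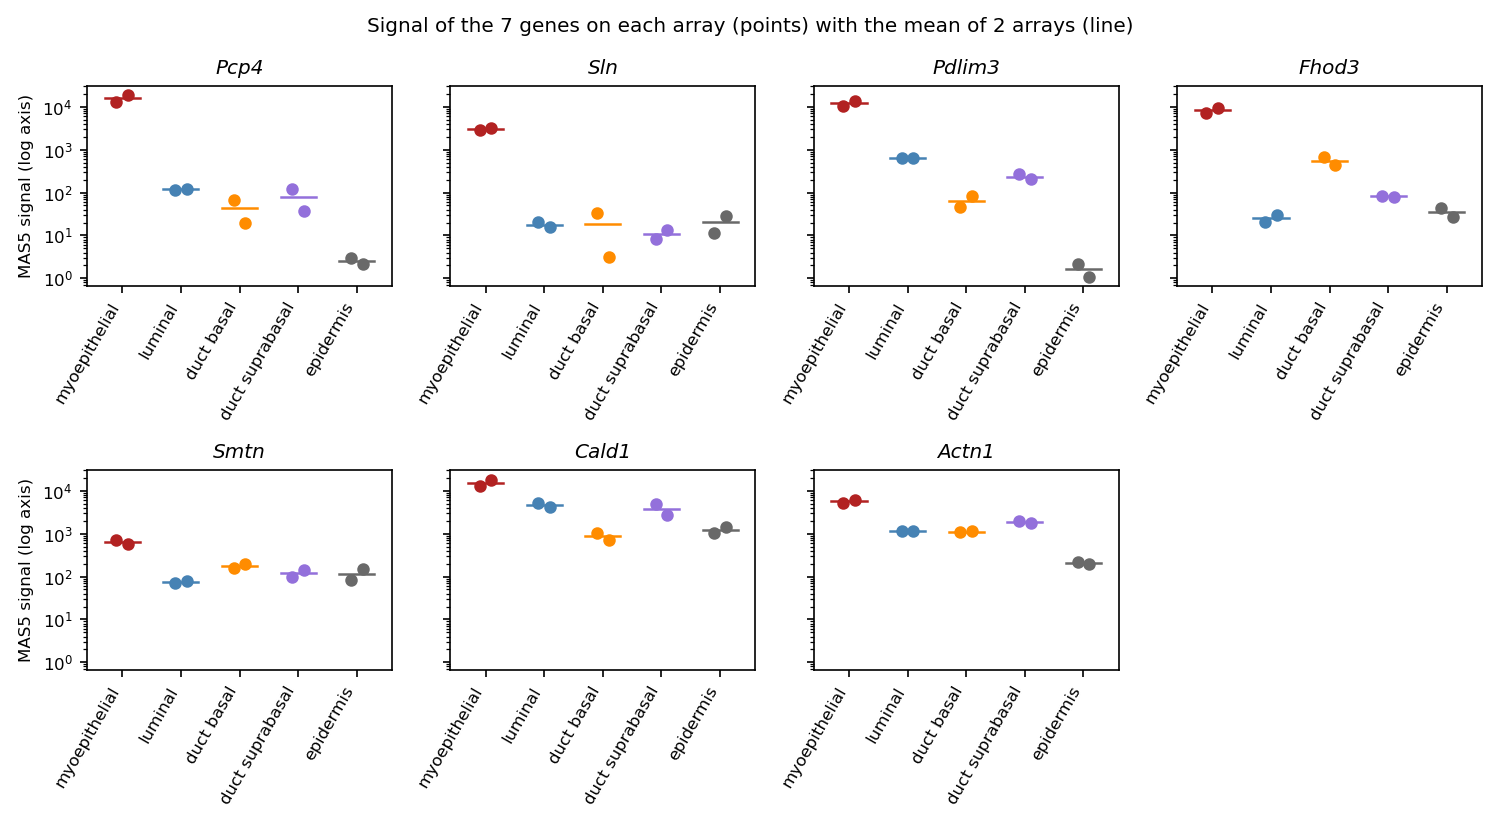
Signal of each gene on each of the 10 arrays (points, vertical log axis, MAS5 signal units), by population from myoepithelial on the left to epidermis on the right, with lines at the mean of the 2 arrays. Both myoepithelial arrays lie above all 8 others in every panel, and the distance is 109-fold for Pcp4 and 2.48-fold for Cald1.

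The genes of the filament anchors were also brightest in myoepithelial cells, with unequal signal elsewhere. Pdlim3, which encodes a PDZ and LIM domain protein that binds alpha-actinin at the Z-disc, had 10166 and 13980 in myoepithelial cells, against 629 and 651 in luminal, 46.2 and 84.1 in duct basal, 268 and 204 in duct suprabasal and 2.2 and 1.1 in epidermal cells. Fhod3, a formin that assembles actin filaments in the sarcomeres of heart muscle, had 7205 and 9513 in myoepithelial cells, against 20.6 and 30.2 in luminal, 665 and 446 in duct basal, 82.6 and 79.8 in duct suprabasal and 44.8 and 26.5 in epidermal cells. For Pdlim3 the next population in order was luminal, and for Fhod3 it was duct basal. Actn1 encodes an alpha-actinin that cross-links actin filaments, among other places at adhesions. It had 5325 and 6172 in myoepithelial cells, against 1147 and 1139 in luminal, 1089 and 1131 in duct basal, 1976 and 1729 in duct suprabasal and 224 and 194 in epidermal cells. Its luminal and duct basal arrays lay close together, and every array of the 4 other populations exceeded its own 40th percentile.

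The regulators on the thin filament stood, like Actn1, closer to their level in other cells, with the lower myoepithelial array 2.48-fold above the highest other array for Cald1 and 2.70-fold for Actn1. Smtn encodes smoothelin, an actin-binding protein of contractile smooth muscle. Its signal was 705 and 581 in myoepithelial cells, against 69 and 77.7 in luminal, 159 and 194 in duct basal, 96.8 and 139 in duct suprabasal and 84 and 148 in epidermal cells. Arrays of the duct suprabasal and epidermal populations overlapped. Cald1 encodes caldesmon, which holds back actomyosin until calmodulin or phosphorylation releases it and which exists in a smooth muscle and a non-muscle form. It had 13061 and 18137 in myoepithelial cells, against 5257 and 4177 in luminal, 1055 and 702 in duct basal, 5038 and 2674 in duct suprabasal and 1056 and 1421 in epidermal cells. Luminal and duct suprabasal arrays overlapped, and duct basal cells had the lowest mean.

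In 7 of the 7 genes both myoepithelial arrays lay above all 8 others, which held for 13.4% of the 9310 genes tested. The choice of the genes rests on this contrast, so nothing is read from that count. All 7 passed the filter on low signal, Sln through the myoepithelial arrays alone. Pcp4, Pdlim3 and Fhod3 exceeded the 40th percentile on 4, 5 and 5 of the 8 other arrays, and Smtn, Cald1 and Actn1 on 8 of 8. On the log2 scale, with 12 added to each signal, the difference between myoepithelial cells and the next highest population was 6.91 for Pcp4, 4.19 for Pdlim3, 3.90 for Fhod3, 1.79 for Smtn, 1.71 for Cald1 and 1.63 for Actn1. Ordered by this difference over all genes tested, Pcp4 ranked 3, Pdlim3 19, Fhod3 26, Smtn 204, Cald1 224 and Actn1 245. Sln is left out of that order, since its other arrays are all low. With low signals set to the 40th percentile, a step added after seeing the data, its differences were at least 5.72, 5.61, 5.37 and 6 from luminal, duct basal, duct suprabasal and epidermal cells. The median log2 difference of the 7 genes was 4.19 from luminal, 4.14 from duct basal and 5.60 from duct suprabasal cells. That of all genes tested was 0.08, 0.02 and -0.01. From epidermal cells the median of the 7 genes was 6.60, against 0.28 for all genes. That 6.60 is the value of Sln and rests on its low signals, so nothing is read from it. With the low signals so set, the medians of the 7 genes were 4.19, 4.14, 5.37 and 6. Of these, 5.37 and 6 are the bounds given for Sln. The genes thus fall along a range, from transcripts nearly limited to the myoepithelial arrays to transcripts present in all 5 populations. In bulk RNA a population with fewer cells that express a gene cannot be told apart from one with less of its RNA per cell.

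Set against the luminal arrays, Pcp4 had 0.742% of its myoepithelial mean there and Pdlim3 5.30%. Smtn had 11.4%, Actn1 19.9% and Cald1 30.2%. Sln and Fhod3 were under the 40th percentile on both luminal arrays, and no share is given for them. For comparison, the luminal mean of the calponin gene Cnn1 was 0.596% of its myoepithelial mean and that of Acta2 was 3.92%. In duct basal cells Fhod3 had 6.65% of its myoepithelial mean, the smooth muscle myosin gene Myh11 had 0.479% and Acta2 4.02%. These shares are of 1 probe set each, and whether carried-over myoepithelial RNA had a part in them was not tested.

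Upstream sequences are shown because the genes were high together in 1 population. The RefSeq promoter table (GRCm38.p6) held 6 windows for 5 of the genes, Cald1 having 2, each of 250 bases before and 50 after a transcript start, and the entries of Sln and Fhod3 were not used here. The CArG box, the site of serum response factor, was sought on both strands as exactly 2 C, 6 A or T and 2 G. So was CATTCC, the core of the site of TEAD factors. Sites that depart from these letters were not sought. No window of the 5 genes held the CArG box, which 1.63% of all 32851 windows held. CATTCC or its reverse complement GGAATG stood in 3 of the 6 windows, those of Pdlim3, Smtn and 1 start of Cald1, against 14.7% of all windows. As no window of these genes held the CArG box, the motifs did not overlap in them. A match is a description of these letters only. The 250 bases before the start are printed 5′ to 3′ on the strand of the gene, with matches in capitals, for the 3 genes with a match and for Pcp4, the gene with the widest distance.
Pdlim3, chr8:45885237-45885486, plus strand: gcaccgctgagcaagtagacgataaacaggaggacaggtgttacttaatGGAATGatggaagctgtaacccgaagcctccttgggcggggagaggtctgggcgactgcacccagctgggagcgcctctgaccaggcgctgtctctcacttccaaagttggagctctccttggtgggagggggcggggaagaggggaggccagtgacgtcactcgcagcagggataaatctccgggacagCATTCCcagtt
Smtn, chr11:3539293-3539542, minus strand: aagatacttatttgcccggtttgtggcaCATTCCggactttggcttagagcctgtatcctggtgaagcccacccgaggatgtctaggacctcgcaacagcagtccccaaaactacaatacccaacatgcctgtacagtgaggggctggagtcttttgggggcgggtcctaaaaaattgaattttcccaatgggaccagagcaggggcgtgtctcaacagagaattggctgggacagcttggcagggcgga
Cald1, chr6:34598254-34598503, plus strand: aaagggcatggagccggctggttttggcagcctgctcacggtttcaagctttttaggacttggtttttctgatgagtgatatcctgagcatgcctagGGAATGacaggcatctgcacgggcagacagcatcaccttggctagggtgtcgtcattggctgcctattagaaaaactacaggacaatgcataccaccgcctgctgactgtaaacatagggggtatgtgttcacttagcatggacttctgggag
Pcp4, chr16:96467356-96467605, plus strand: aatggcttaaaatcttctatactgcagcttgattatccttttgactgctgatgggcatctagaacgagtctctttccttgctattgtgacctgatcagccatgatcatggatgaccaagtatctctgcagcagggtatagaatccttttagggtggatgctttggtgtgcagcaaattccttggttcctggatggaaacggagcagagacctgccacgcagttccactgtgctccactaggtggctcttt
In the Pdlim3 window the matches began 201 and 11 bases before the start, in that of Smtn 222 and in that of Cald1 153.

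Outside myoepithelial cells the genes did not share 1 order, and the tests were made there. Fhod3 was higher in duct basal cells than in each of the 3 others. Pdlim3 and Cald1 were lower in duct basal than in luminal and duct suprabasal cells. Pcp4, Pdlim3 and Actn1 were higher in each of the luminal, duct basal and duct suprabasal populations than in epidermis. Tests used limma on all 10 arrays, with p-values adjusted over all 9310 genes by the Benjamini-Hochberg method and a threshold of 0.05. Sln entered the fit but was low on all 8 arrays, so these comparisons say nothing of it, and the counts below are of the 6 other genes.

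Between the layers of the duct, 4 of the 6 genes passed, against 16.4% of all genes tested. Fhod3 was higher in duct basal than in duct suprabasal cells, by 2.58 on the log2 scale (SE 0.31, adjusted p = 0.00153). Cald1 was lower in duct basal cells (-2.08, SE 0.34, adjusted p = 0.00515), as was Pdlim3 (-1.72, SE 0.30, adjusted p = 0.00632). Actn1 also passed as lower (-0.73, SE 0.17, adjusted p = 0.0228), and this call ended without the first (0.0798) or the second (0.0888) duct basal array or the first duct suprabasal array (0.0690). Averaged over its probe sets, which disagree, Actn1 had -0.43 (adjusted p = 0.168). The first duct suprabasal array had more Cald1 than the second, and also more Krt18, and over 20 alternatives, that array left out among them, the difference of Cald1 ranged from -2.53 to -1.62. When the model held just the 4 arrays of these populations, the calls of Cald1 (adjusted p = 0.0619), Pdlim3 (adjusted p = 0.101) and Actn1 (adjusted p = 0.167) ended. The log2 differences of Pcp4 (-0.70) and Smtn (0.55) did not pass. The count of all genes was 824 without duct basal array 1 and 449 without duct basal array 2, against 1524 with all arrays. The median of the 6 genes was -0.71 between the duct layers, -0.72 between duct basal and luminal cells and -0.12 between luminal and duct suprabasal cells, where that of all genes was -0.02, 0.04 and -0.06.

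Duct basal and luminal cells, the outer layer of the duct and the inner layer of the coil, differed in 4 of 6 genes, against 35.4% of all genes tested, with 2 in each direction. Fhod3 was higher in duct basal cells by 3.91 (SE 0.31, adjusted p = 3.78e-05), with both luminal arrays under the 40th percentile. Smtn was higher by 1.14 (SE 0.32, adjusted p = 0.0214), a call that ended without duct basal array 1 (0.0528) or 2 (0.106) and without luminal array 1 (0.106) or 2 (0.0697). Pdlim3 was lower in duct basal cells (-3.12, SE 0.30, adjusted p = 0.000103), and so was Cald1 (-2.43, SE 0.34, adjusted p = 0.000717). Pcp4 had -1.39 (SE 0.52, adjusted p = 0.0659) and, with quantile normalization, -1.48 (adjusted p = 0.0455). Actn1 had -0.04 (SE 0.17, adjusted p = 0.880). Over all genes 3300 passed, 1945 without luminal array 1 and 2135 without luminal array 2.

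Luminal and duct suprabasal cells, the inner layers of coil and duct, differed in 3 of 6 genes, against 15.2% of all genes tested. None of the 3 calls held under every alternative. Pdlim3 was higher in luminal cells (1.41, SE 0.30, adjusted p = 0.0149), and its adjusted p was 0.0889 and 0.0893 when the first or second luminal array was left out and 0.0569 without duct suprabasal array 2. Fhod3 was lower (-1.33, SE 0.31, adjusted p = 0.0212), with 0.132 and 0.0620 without luminal arrays 1 and 2 and 0.0517 without duct suprabasal array 2. Fhod3 also lost its call with quantile normalization (-0.96, adjusted p = 0.0622) and with 47 added to each signal (-0.83, adjusted p = 0.0533), and its luminal arrays were both under the 40th percentile. Actn1 was lower (-0.69, SE 0.17, adjusted p = 0.0295). Its adjusted p was 0.135 and 0.139 without luminal arrays 1 and 2, 0.0671 without duct suprabasal array 1, and 0.0506 and 0.0507 without epidermis arrays 1 and 2. The count was 0 of 6 without either luminal array and 1 of 6 without duct suprabasal array 2, and the count over all genes, 1413, was then 315, 508 and 924. With quantile normalization the calls over all genes were 592 higher and 794 lower in luminal cells, in place of 461 and 952.

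**Figure D2:**
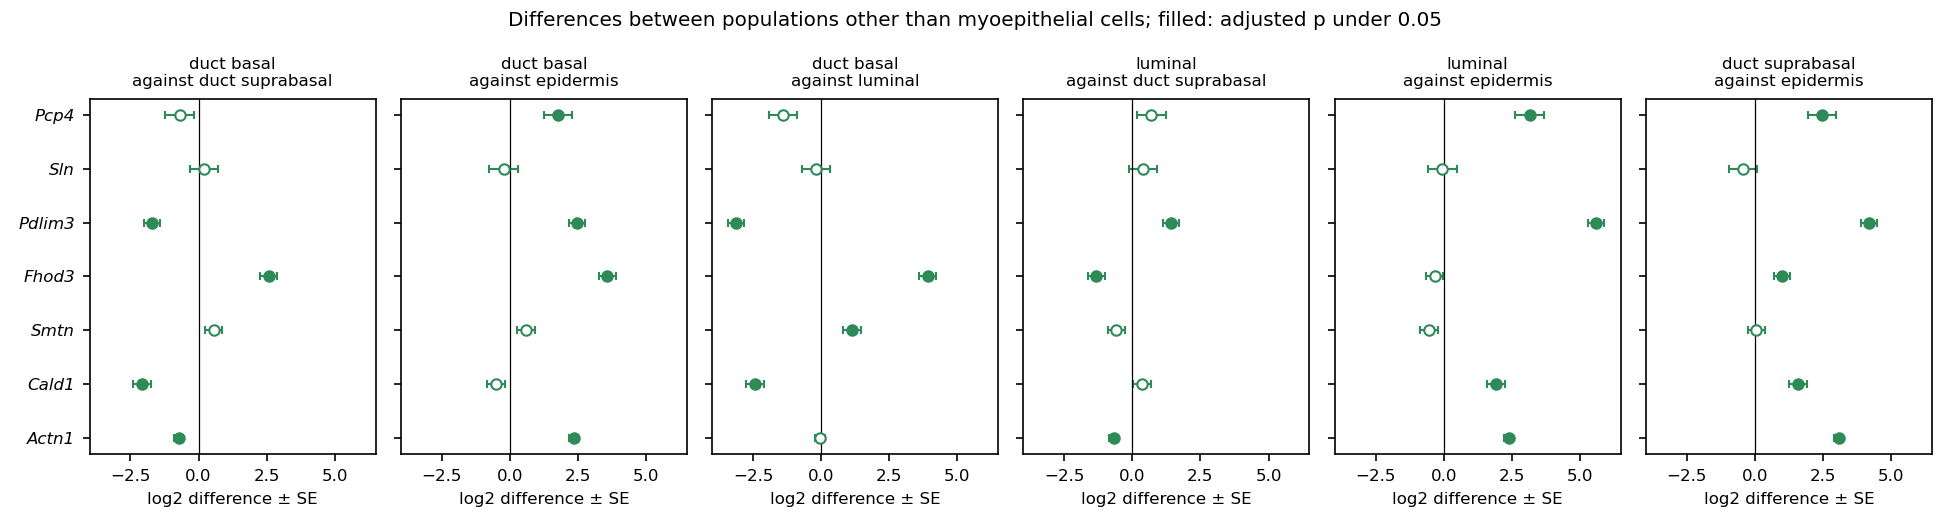
Log2 difference (points) with its standard error (bars) for each gene in the 6 comparisons that leave out myoepithelial cells, the population named first minus the one named second. Filled points have an adjusted p under 0.05; Fhod3 lies to the right and Pdlim3 and Cald1 lie to the left where duct basal cells are compared with luminal or duct suprabasal cells.

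Against epidermis the sweat gland populations held more transcript of most of the genes. In luminal cells 4 of 6 genes passed, against 45.3% of all genes tested, and all 4 were higher: Pdlim3 (5.58, SE 0.30, adjusted p = 2.61e-06), Pcp4 (3.16, SE 0.52, adjusted p = 0.00105), Actn1 (2.39, SE 0.17, adjusted p = 1.12e-05) and Cald1 (1.93, SE 0.34, adjusted p = 0.00140). Duct basal cells were higher in 4 of 6 genes, against 34.0% called in either direction. They were Fhod3 (3.57, SE 0.31, adjusted p = 7.38e-05), Pdlim3 (2.46, SE 0.30, adjusted p = 0.000367), Actn1 (2.35, SE 0.17, adjusted p = 4.74e-05) and Pcp4 (1.76, SE 0.52, adjusted p = 0.0287). The call of Pcp4 ended without duct basal array 1 (0.199), epidermis array 1 (0.106) or epidermis array 2 (0.118). It also ended with 47 added to each signal, where the difference was 0.81 (adjusted p = 0.121), and over 20 alternatives that difference ran from 0.81 to 3.37. Cald1 did not pass there, at -0.50 (SE 0.34, adjusted p = 0.283). In duct suprabasal cells 5 of 6 were higher, against 46.0% called in either direction. Pdlim3 (4.17), Actn1 (3.08), Pcp4 (2.46) and Cald1 (1.57) kept their call without any 1 array. Fhod3 (0.99, SE 0.31, adjusted p = 0.0255) lost it without duct suprabasal array 1 (0.0629) or 2 (0.0501) or epidermis array 2 (0.164), with quantile normalization (0.35, adjusted p = 0.358) and with 47 added (0.64, adjusted p = 0.0606).

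The epidermis arrays had lower median signals, 65.7 and 67.3, against 92.7 to 120.1 on the 8 others, and scaling bears on these comparisons. The median log2 difference of all genes from epidermis was 0.16 in luminal, 0.24 in duct basal and 0.25 in duct suprabasal cells, and -0.03, 0.01 and -0.10 with quantile normalization. The calls over all genes then were 1500 higher and 1145 lower in duct basal cells, in place of 2145 and 1023, and 1910 higher and 2100 lower in duct suprabasal cells, in place of 2736 and 1551. Under that normalization 4 of the 6 genes were higher in luminal, 4 in duct basal and 4 in duct suprabasal cells, and Smtn passed as lower in luminal cells (-0.93, adjusted p = 0.0392), where it had -0.54 (adjusted p = 0.198) without that step. For Pcp4 and Pdlim3 both epidermal arrays, at 1.1 to 3, lay under their 40th percentile and far below the added 12. Their ratios to epidermis are therefore not known, and the log2 differences depend on the added constant. Over 20 alternatives the luminal difference ran from 1.74 to 5.06 for Pcp4 and from 3.82 to 7.95 for Pdlim3. Duct basal array 2 (19.2) and duct suprabasal array 2 (37.2) were also under the 40th percentile for Pcp4. So was duct basal array 1 (46.2) for Pdlim3. The count over all genes for duct basal cells against epidermis, 3168, was 1765 without duct basal array 1 and 1741 and 1895 without epidermis arrays 1 and 2.

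Several probe sets were available for Cald1, Actn1 and Sln. The 3 probe sets of Cald1 gave log2 differences of 4.14, 3.18 and 3.98 between myoepithelial and duct basal cells and of 1.71, 1.42 and 1.51 between myoepithelial and luminal cells, and each put luminal cells nearest to myoepithelial cells. For Actn1, 1452415_at had 346 and 337 in myoepithelial cells, against 368 and 436 in duct suprabasal cells, a difference of -0.22, where the representative probe set had 1.63. The third Actn1 probe set, 1427385_s_at, was dim, with 101 and 81.9 in myoepithelial cells and at most 55.1 elsewhere. The distance of Actn1 between myoepithelial and duct suprabasal cells therefore differs with the probe set. The second Sln probe set, 1420883_at, had 34 and 45.4 in myoepithelial cells and at most 22.5 elsewhere. The 3 probe sets of Cald1 do not separate its smooth muscle and non-muscle forms here, since the positions of the probes were not used.

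**Figure D3:**
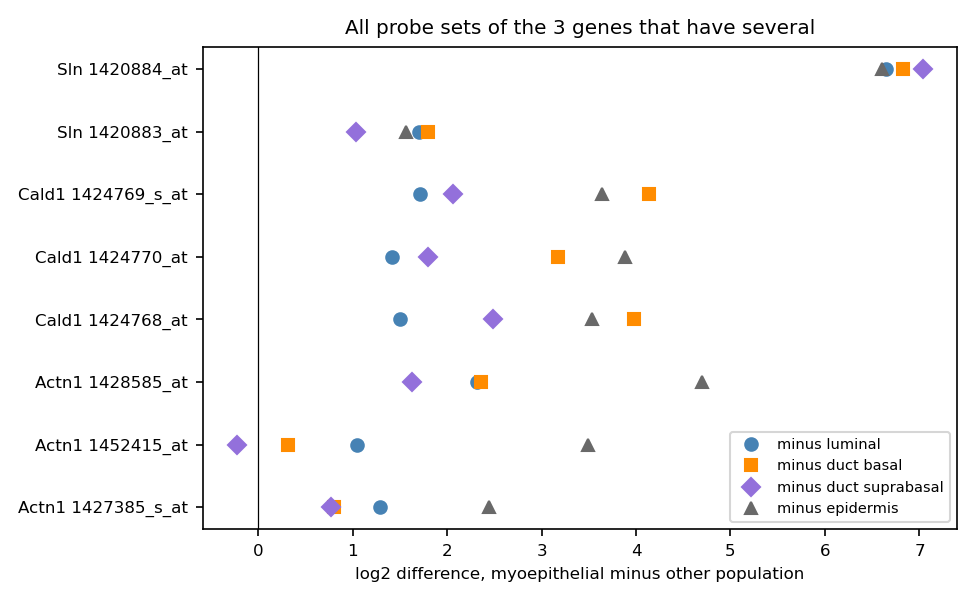
Log2 difference (horizontal axis, signal plus 12), myoepithelial minus each other population (symbols), for each probe set of Sln, Cald1 and Actn1. The probe set 1452415_at of Actn1 lies at -0.22 for duct suprabasal cells, and 1420883_at of Sln lies between 1.04 and 1.80.

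The genes were next set beside their paralogues and partners in the same pathways. These lists were chosen with earlier results known and include core smooth muscle genes that define myoepithelium, so their counts are no independent evidence of direction. Of 114 such genes on the array 86 were tested. Among these Lmod1 passed the filter on low signal through the myoepithelial arrays alone, as Sln did, so its calls are a description. In myoepithelial against luminal cells 43 were higher (50%) and 11 lower (12.8%), against 16.5% and 14.6% of all genes tested. Against duct basal cells 43 were higher and 6 lower (6.98%), against 12.0% and 12.3% of all genes. Against duct suprabasal cells 38 were higher (44.2%) and 8 lower (9.3%), against 8.15% and 9.26% of all genes. Against epidermis 48 were higher (55.8%) and 11 lower (12.8%), against 31.7% and 19.9% of all genes. With quantile normalization the last comparison again had 48 and 11 partners, while all genes had 2182 higher and 2337 lower in place of 2948 and 1857. The median log2 difference of the 86 genes was 0.93, 0.99, 0.91 and 1.34 from luminal, duct basal, duct suprabasal and epidermal cells, where the median of all genes was 0.08, 0.02, -0.01 and 0.28. Without the core smooth muscle list, a step added after seeing the data, 33, 33, 28 and 38 of 76 genes were higher (43.4%, 43.4%, 36.8% and 50%) and 11, 6, 8 and 11 lower, in the same order of populations. These 4 comparisons share the myoepithelial arrays. The count over all genes changed by more than 1.5 times without some arrays. It was 1439 without myoepithelial array 2, 1648 and 1593 without luminal arrays 1 and 2, in place of 2897 against luminal cells. It was 1423 and 1182 without myoepithelial arrays 1 and 2 and 1177 without duct basal array 2, in place of 2260 against duct basal cells, and 630 without myoepithelial array 2, in place of 1621 against duct suprabasal cells.

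Among the genes of the calcium store, Casq2 and Atp2a2 were higher in myoepithelial cells than in each of the 4 other populations, while Atp2a3 was brightest in luminal cells. Of 14 tested genes of calcium pumps, stores and channels, 4 were higher and 4 lower in myoepithelial than in luminal cells. Against duct basal cells there were 5 and 0, against duct suprabasal 3 and 0 and against epidermal cells 5 and 1. The shares higher were 28.6%, 35.7%, 21.4% and 35.7% in this order, against 16.5%, 12.0%, 8.15% and 31.7% of all genes tested. The shares lower were 28.6%, 0%, 0% and 7.14%, against 14.6%, 12.3%, 9.26% and 19.9%. Casq2, which encodes the cardiac calsequestrin that binds calcium inside the store, had 4479 and 4094 in myoepithelial cells, against 17.2 and 38 in luminal, 126 and 118 in duct basal, 49.1 and 39.5 in duct suprabasal and 34.2 and 31.2 in epidermal cells. It was higher by 6.81 (SE 0.31, adjusted p = 5.76e-06) than in luminal and by 5.01 (SE 0.31, adjusted p = 1.50e-05) than in duct basal cells. Among the pumps that sarcolipin can inhibit, Atp2a2 had 16805 and 19155 in myoepithelial cells, against 7567 and 6856 in luminal and 2662 and 2885 in epidermal cells, and it was higher than in each of the 4 others by 1.32 to 2.69. Atp2a3, the pump of many secretory and blood cells, had 5502 and 722 in myoepithelial cells, against 17451 and 24839 in luminal cells. It was lower by 3.37 on the log2 scale (SE 0.82, adjusted p = 0.0131), and the call ended without myoepithelial array 2 (0.0621) or luminal array 2 (0.0788). Atp2a1, the pump of fast skeletal muscle, had 36.8 and 64.2 in myoepithelial cells and at most 50.7 elsewhere, and 0 of 4 comparisons passed in limma (adjusted p 0.146 to 0.718), nor did any at an unadjusted p under 0.05. Pln, the phospholamban gene and a relative of Sln in its action on the pump, had 28.1 and 50 in myoepithelial cells and at most 40.7 elsewhere and did not pass the filter. Itpr2, a calcium release channel gene, had 787 and 116 in myoepithelial cells, against 3859 and 3954 in luminal cells, and passed as lower (adjusted p = 0.00939). Without luminal array 1 the adjusted p of Itpr2 was 0.0506, without luminal array 2 it was 0.0530, and without myoepithelial array 2 it was 0.0580.

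Of 17 tested genes of calmodulin and its targets, 8 were higher and 1 lower in myoepithelial than in luminal cells. Against duct basal cells there were 6 and 1, against duct suprabasal 5 and 1 and against epidermal cells 9 and 2. The shares higher were 47.1%, 35.3%, 29.4% and 52.9% in this order, against 16.5%, 12.0%, 8.15% and 31.7% of all genes tested. The shares lower were 5.88%, 5.88%, 5.88% and 11.8%, against 14.6%, 12.3%, 9.26% and 19.9%. Mylk, the calmodulin-dependent myosin light chain kinase gene, had 26508 and 38321 in myoepithelial cells and at most 331 elsewhere. Pcp4l1, the paralogue of Pcp4, had 579 and 476 in myoepithelial cells, against 23.9 and 32.8 in luminal, 107 and 72 in duct basal, 139 and 1153 in duct suprabasal and 202 and 158 in epidermal cells. It was higher than in luminal cells (3.74, SE 0.74, adjusted p = 0.00542). Its duct suprabasal arrays lay below and above both myoepithelial arrays. Array 2 of that population also had the higher fibroblast and endothelial sums. Camk2g, a calmodulin-dependent kinase gene, was higher in myoepithelial cells than in each of the 4 others, by 1.18 to 1.69. The call of Camk2g against duct suprabasal cells ended without myoepithelial array 1, where the difference was 0.98. It also ended in limma with averaged probe sets (0.90, adjusted p = 0.0700) and with only the 4 arrays compared (1.18, adjusted p = 0.0873). Calml3, a calmodulin-like gene of stratified epithelium, ran the other way, with 386 and 209 in myoepithelial cells, against 12118 and 17296 in duct basal and 24580 and 25552 in epidermal cells.

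Among 20 tested Z-disc and focal adhesion partners, 13 were higher and 2 lower in myoepithelial than in luminal cells. Against duct basal cells there were 13 and 2, against duct suprabasal 11 and 4 and against epidermal cells 13 and 3. The shares higher were 65%, 65%, 55% and 65% in this order, against 16.5%, 12.0%, 8.15% and 31.7% of all genes tested. The shares lower were 10%, 10%, 20% and 15%, against 14.6%, 12.3%, 9.26% and 19.9%. The family of Pdlim3 divided. Pdlim7 had 1892 and 1498 in myoepithelial cells, against 14.9 and 73.6 in luminal, 185 and 248 in duct basal, 122 and 313 in duct suprabasal and 117 and 94.6 in epidermal cells, and was higher in 4 of 4 comparisons. Pdlim1 had 527 and 514 in myoepithelial cells, against 2534 and 2774 in duct basal and 1939 and 2159 in epidermal cells. It was lower than in duct basal (-2.32, SE 0.27, adjusted p = 0.000411) and epidermal cells (-1.95, SE 0.27, adjusted p = 0.000358). Averaged over all its probe sets, Pdlim1 had -0.76 (adjusted p = 0.180) and -0.58 (adjusted p = 0.216) in these comparisons, and both calls ended. Pdlim2 was lower than in epidermis (-3.71, SE 0.43, adjusted p = 0.000117), with 84.6 and 104 in myoepithelial cells, against 1338 and 1404 in epidermal cells. Pdlim5 was lower than in luminal cells (-1.16, SE 0.18, adjusted p = 0.00182). Pdlim4 was bright in all 5 populations, with 6946 and 7495 in myoepithelial cells and 3228 to 5840 elsewhere. Ldb3, a striated muscle relative of the family, had at most 59.5 on any array, and 0 of 4 comparisons passed in limma (adjusted p 0.528 to 0.958), nor did any at an unadjusted p under 0.05. Among the relatives of Actn1, Actn4 had 6534 and 7813 in myoepithelial cells, against 5535 and 5184 in luminal cells, a difference of 0.41 (SE 0.22, adjusted p = 0.193). The muscle forms Actn2 and Actn3 reached at most 54.7 on any array and did not pass the filter. Flna, the actin cross-linker filamin A, had 12109 and 10766 in myoepithelial cells, against 86.5 and 125 in luminal and 1181 and 1403 in duct basal cells, and was higher in 4 of 4 comparisons.

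**Figure D4:**
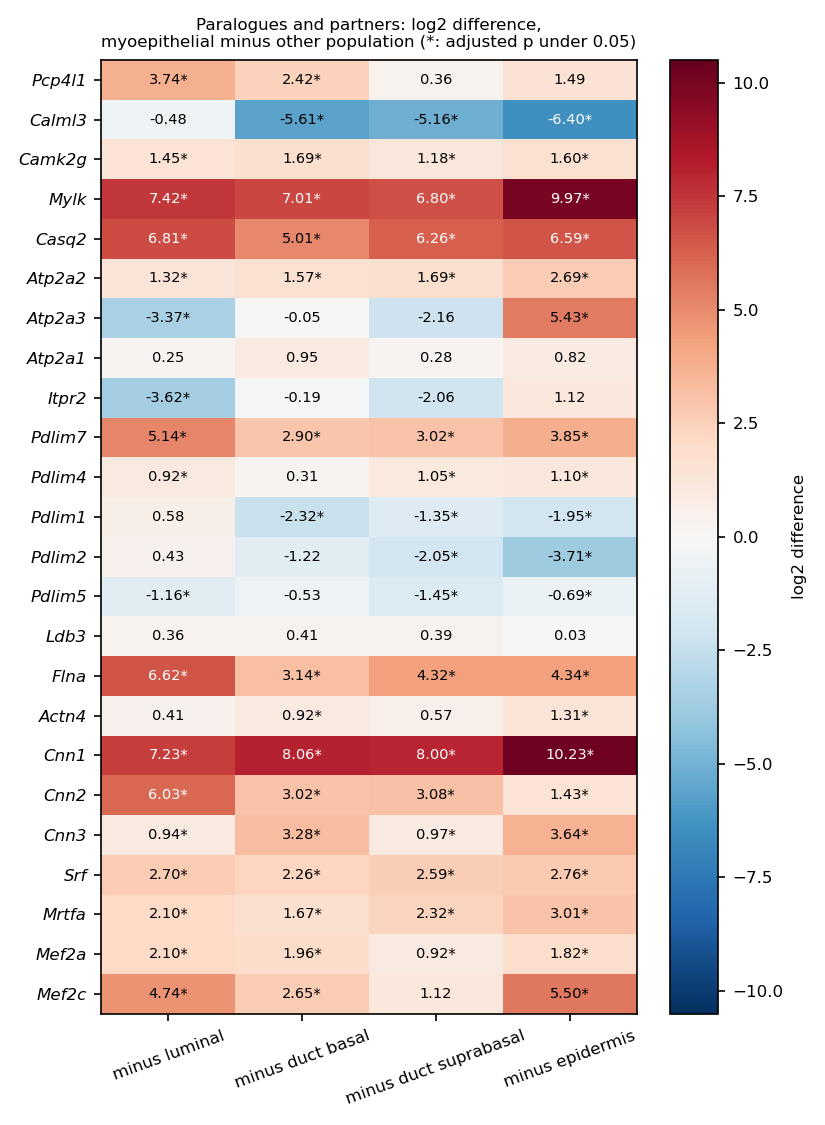
Log2 difference, myoepithelial minus luminal, duct basal, duct suprabasal and epidermal cells (columns), for paralogues and partners of the 7 genes (rows), with red for higher and blue for lower in myoepithelial cells and a star for an adjusted p under 0.05. Casq2 and Pdlim7 are red in all 4 columns, while Calml3, Pdlim1 and Pdlim2 are blue against duct and epidermal populations.

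Of 17 tested formin and filament turnover genes, 4 were higher and 3 lower in myoepithelial than in luminal cells, 5 and 3 against duct basal, 6 and 3 against duct suprabasal and 5 and 4 against epidermal cells. The shares higher were 23.5%, 29.4%, 35.3% and 29.4% in this order, against 16.5%, 12.0%, 8.15% and 31.7% of all genes tested. The shares lower were 17.6%, 17.6%, 17.6% and 23.5%, against 14.6%, 12.3%, 9.26% and 19.9%. Cnn2, a calponin gene of many cell types, had 4123 and 5153 in myoepithelial cells, against 35.1 and 93.8 in luminal and 491 and 631 in duct basal cells, and was higher by 6.03 and 3.02. Tmod3, which caps the slow ends of actin filaments, was lower than in duct basal cells (-1.77, SE 0.23, adjusted p = 0.000787) and epidermis (-2.26, SE 0.23, adjusted p = 6.63e-05). Fhod1, the paralogue of Fhod3, and Smtnl2, a relative of Smtn, had no probe set annotated to them alone, and Smtnl1 did not pass the filter, with at most 42 on any array. All 10 tested core smooth muscle genes were higher in each of the 4 comparisons, Cnn1 with 12770 and 20511 in myoepithelial cells and at most 127 elsewhere. These genes define myoepithelium, so nothing is read from that count. Lmod1 among them passed the filter through the myoepithelial arrays alone.

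Genes of muscle transcription factors were also among the partners. Srf, the serum response factor gene, had 1578 and 1760 in myoepithelial cells, against 274 and 221 in luminal, 306 and 376 in duct basal, 222 and 320 in duct suprabasal and 195 and 284 in epidermal cells. It was higher in 4 of 4 comparisons, by 2.26 to 2.76. Mrtfa, a coactivator of Srf that senses free actin, had 470 and 667 in myoepithelial cells, against 118 and 125 in luminal cells, and was higher by 2.10 (SE 0.32, adjusted p = 0.00161). Mef2c, a muscle transcription factor gene, was higher than in luminal cells (4.74, SE 0.58, adjusted p = 0.000595). It had 1247.5 and 1768 in myoepithelial cells, against 337 and 1352 in duct suprabasal cells, where the arrays overlapped. Ppp1r14a, an inhibitor of myosin phosphatase, had 1228 and 1488 in myoepithelial cells, against 85 and 37.8 in duct basal cells, and was higher by 4.29 (SE 0.34, adjusted p = 4.48e-05). Luminal cells stood closer, with 512 and 586 and a difference of 1.29. That difference was 1.15 to 1.42 when 1 array of either population was left out.

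The likeness of the 7 genes to each other was described by Pearson's r of the log2 signals, whose points share populations and arrays. Over the 10 arrays r ranged from 0.49 (Fhod3 with Cald1) to 0.94 (Pcp4 with Pdlim3). Over the 8 other arrays Pdlim3 had r = 0.90 with Pcp4, 0.83 with Actn1 and 0.77 with Cald1. Fhod3 had r = 0.74 with Smtn and -0.61 with Cald1 over these 8 arrays, and Smtn had -0.72 with Cald1. Outside myoepithelial cells Fhod3 and Smtn thus ran with each other and Pdlim3 with Pcp4, Cald1 and Actn1. Of these 8 arrays Pcp4 exceeded the 40th percentile on 4, and Pdlim3 and Fhod3 each on 5. Their r therefore rests in part on low signals, among them the epidermal ones of Pcp4 and Pdlim3.

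Among the other 9309 genes tested, the 3 most like each of the 7 were found by the same measure over 10 arrays, so that r rests on the myoepithelial contrast for which the genes were chosen. For Pcp4 they were Fblim1 (r = 0.988), which encodes an adaptor between filamin and integrin adhesions, Cnn1 (0.987) and Dtna (0.986). Fblim1 had 2666 and 3402 in myoepithelial cells and at most 172 elsewhere. For Sln they were Lmod1 (0.985), which encodes a smooth muscle leiomodin that nucleates actin, Nptx2 (0.982) and Papln (0.976), all 3 under the 40th percentile on 8 of 8 other arrays, as Sln was, so that r sets 2 high arrays against 8 low ones. For Pdlim3 they were Rbpms (0.987), an RNA-binding protein gene, Arhgef25 (0.987) and Pdk4 (0.986). Rbpms had 6316 and 7174 in myoepithelial cells, against 651 and 616 in luminal, 162 and 114 in duct basal, 454 and 560 in duct suprabasal and 16.2 and 20.1 in epidermal cells. For Fhod3 they were Enc1 (0.991), Marcksl1 (0.986) and Dlk2 (0.985). Enc1, an actin-binding kelch protein gene, had 7291 and 8893 in myoepithelial cells, against 1149 and 935 in duct basal cells, its next highest population as for Fhod3. For Smtn they were Speg (0.985), a kinase gene of striated and smooth muscle, Wdsub1 (0.981) and Flna (0.970). For Cald1 they were Atxn7l3b (0.977), Nudt4 (0.974) and Pbxip1 (0.973), and for Actn1 Prss23 (0.990), Rrbp1 (0.980) and Gprasp1 (0.980).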

How the data were processed

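Expression was measured on 10 arrays, 2 for each of 5 populations, from total RNA by biotin-labelled cRNA, per the labels' protocols. The deposited table holds intensity values, linear signals made with MAS5, per the submitters' processing notes. The 2% trimmed mean is 500 on every array. Of 22690 probe sets, 64 controls were left out, 20380 had 1 gene symbol, 691 several and 1555 were not listed in the platform annotation used here. Each of 12393 genes was represented by the probe set with the highest mean signal. A gene was tested if its signal passed the array's 40th percentile on 2 or more arrays, which left 9310. Signals were analysed as log2 values of the deposited signal plus 12, the 20th percentile of all values, and differences are on that scale, which understates changes of dim genes. All 10 arrays entered a linear model in limma 3.58.1 (R 4.3.3) with a term per population, eBayes with trend and Benjamini-Hochberg adjustment over all genes tested. The fit was tried on simulated data with independent normal noise, for duct basal against duct suprabasal cells, with 50 genes changed at each size. It recovered 38%, 68%, 84% and 90% of the changes of 2, 4, 8 and 16-fold, and 9 of 149 calls were false. The simulated arrays had fewer changed genes than the 1524 called here in that comparison. The labels do not say which animals lie behind an array, so the p-values reflect only how these arrays varied, which may in part be technical.

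The 7 genes and the lists of partners and markers were chosen with earlier results of these data known. All 7 genes are named. Partners are named where they are direct paralogues or partners of a member, or, up to 4 per list, direction and comparison, where they passed at 2-fold or more, did not overlap and were brighter than the median gene. The alternatives covered the added constant (1 and 47), quantile normalization, the filter, averaged probe sets, each array left out, the replicate number as a block, eBayes without trend and a fit of only the arrays compared. Samples with the same replicate number were not taken as pairs. The counts of 1 partner list and the values of a few partner genes are not reported here.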

Additional observations from a re-analysis of the deposited data

Results flagged for a closer look

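In the gland the outer layer is myoepithelial and the inner luminal, and in the duct the outer layer is basal and the inner suprabasal. For 15 of 69 genes described (21.7%), 3 of them among the 7 members, both arrays of the outer layer lay above both of the inner layer in the gland and below them in the duct. Of all 9310 genes tested, 669 (7.19%) had this pattern. The genes described were in part named for being higher or lower in these layers, so nothing is read from their share. The difference between the layer differences was not tested, and for the members the gland contrast is the one they were chosen for. On the log2 scale the gland difference minus the duct difference was 5.91 for Pdlim3 (4.19 and -1.72), 3.79 for Cald1 (1.71 and -2.08) and 3.04 for Actn1 (2.31 and -0.73). Fhod3, Smtn, Pcp4 and Sln did not show opposite layers without overlap.

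Among the paralogues and regulators, the value was 5.81 for Pcp4l1, 0.76 for Actn4, 1.95 for Camk2g and 0.94 for the calcineurin gene Ppp3ca. For Actn4 and Ppp3ca the gland differences were only 0.41 and 0.30 and the duct differences -0.34 and -0.64. The gland difference of Actn4 did not pass in limma. Among partners at filament anchors it was 5.01 for Fhl1, 3 for Tes and 3.86 for Lpp. It was 3.64 for the tropomyosin gene Tpm1, 3.25 for the calponin gene Cnn3 and 2.53 for Ppp1r14a, and 3.14 and 6.28 for the transcription factor genes Mef2a and Mef2c. On duct suprabasal array 2 Pcp4l1 had 1153, Mef2c 1352 and Fhl1 4658, the last against 1099 on array 1. Array 2 also had the highest sums of fibroblast (88458) and endothelial (29386) markers, and their part in these values was not tested.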

How the results depend on the processing

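Over 20 alternatives, 10 of them leaving out 1 array each, 0 of the results followed changed direction. Followed were the counts, the medians, the member differences from myoepithelial cells and only those tests that had passed. Smtn, which had not passed between duct suprabasal and epidermal cells, went from 0.05 to -0.65 with quantile normalization. Of the member tests 439 kept their call and 41 lost it, and of the partner gene tests 3301 kept it and 179 lost it. The count of members past the threshold between luminal and duct suprabasal cells ranged from 0 to 3 with 1 array left out, was 1 without myoepithelial array 1 and duct suprabasal array 2, and was 0 with only the 4 arrays compared. With only the 4 arrays compared, 1 member passed between duct basal and duct suprabasal cells, and 29 partner genes passed between myoepithelial and duct suprabasal cells, in place of 46. The median log2 difference of the members between myoepithelial and epidermal cells, 6.60, was 7.28 and 5.51 with 1 and 47 added. It was 4.08 with averaged probe sets and 6.20 to 7 with 1 array left out. With low signals set to the 40th percentile, chosen after seeing the data, it was 6. The median from duct suprabasal cells, 5.60, was 4.04 with averaged probe sets. The values 6.60, 7.28, 4.08, 6 and 4.04 are those of Sln, which was low on every array outside myoepithelial cells. Averaged probe sets include the dim second probe set of Sln. The count over all genes was 242 between the duct layers, 36 between luminal and duct suprabasal cells and 398 between myoepithelial and duct suprabasal cells with only the 4 arrays compared. A fit of 4 arrays has fewer samples, and the cause of the other changes was not tested.

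Samples with the same replicate number had correlations of deviations from 0.03 to 0.36. All 6 pairs among the sweat gland populations were over 0.1 and the 4 pairs with epidermis under it, a hint from the data, while the labels name no shared animal, day or batch, so the number was not taken to pair the samples. With the replicate block, 4, 4, 5, 5, 3 and 4 members passed in the comparisons of duct basal with duct suprabasal, epidermal and luminal cells (the last in place of 4), of duct suprabasal with epidermal cells, and of luminal with duct suprabasal and epidermal cells. The partners past the threshold with the block numbered 58, 50, 49 and 63 against luminal, duct basal, duct suprabasal and epidermal cells, and all genes between the duct layers 2041 in place of 1524. Low signals limit Sln outside myoepithelial cells and Pcp4 and Pdlim3 in epidermis.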
